A study of Mus musculus with 10 samples.

Results

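The mRNA levels of 10 genes for secreted matrix, protease, protease inhibitor, adhesion and growth factor proteins were followed in a mouse macrophage-like cell line, RAW264.7, kept for 24 h in medium with doxorubicin or in medium alone. The genes were Spp1, Timp1, Timp2, Mmp9, Plau, Plaur, Icam1, Pdgfb, Gdf15 and Tgfb1, chosen by symbol as the non-cytokine part of the senescence secretome, and all 10 were among the 22186 genes of the deposited table. Poly(A) RNA was sequenced from 5 libraries with doxorubicin and 5 libraries of medium, each group with replicate numbers 1 to 5. All cells were labelled wild type and grew in the same minimum essential medium with fetal bovine serum, penicillin and streptomycin. Doxorubicin, a chemotherapy drug of the anthracycline class that damages DNA through topoisomerase II, was dissolved in dimethyl sulfoxide, and the labels do not name that solvent for the medium cultures. The dose was 10 nM by the sample titles and 100 nM by the series design, while the dilution in the treatment protocol gives 1000 nM, so it is taken as uncertain. The series title poses the question whether doxorubicin brings on the secretory phenotype of senescence in these cells.

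Senescent cells release cytokines and also proteins that remodel their surroundings. Osteopontin, the product of Spp1, is a matrix glycoprotein that macrophages and osteoclasts secrete and that binds integrins and CD44. Urokinase, encoded by Plau, turns plasminogen into plasmin at the cell surface, where the receptor encoded by Plaur holds it. The gelatinase MMP-9 cleaves denatured collagen, and the TIMP proteins inhibit metalloproteinases of this kind. ICAM-1 is a membrane adhesion molecule for leukocyte integrins, whose ectodomain can be shed. PDGF-B, GDF15 and TGF-beta 1 are secreted growth factors, and Gdf15 is also a known target of p53 and of the integrated stress response.

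Values were FPKM, fragment numbers scaled to transcript length and to library size. The 85 genes named as ribosomal proteins, which every cell uses, had a median of only 5.47 FPKM, and 11 were under 1 FPKM. Orders, ranks and ratios between genes below therefore describe listed values, and how far these follow mRNA abundance was not tested. FPKM summed to between 338293 and 356111 per library, and the files give no read totals, so the depth was unknown. The libraries with number 1 stood apart in both groups. Their log2(FPKM + 1) values correlated with those of the other numbers at 0.937 to 0.982, against 0.976 to 0.998 among numbers 2 to 5. The number 1 libraries also differed from each other in genes listed at 0. Doxorubicin 1 had 8207 of these and medium 1 had 9125, against 8763 to 9108 in numbers 2 to 5. The part of this in the differences within number 1 was not tested. Cdkn1a, the p21 gene that p53 induces, had 120 to 212 FPKM with doxorubicin and 42.5 to 54.4 FPKM in medium (log2 fold change 1.48, limma adjusted p = 0.00466). Of 10 macrophage markers, 9 averaged at least 1 FPKM, and their sum was 1857 to 2055 FPKM with doxorubicin and 1755 to 1939 FPKM in medium. Of 7 fibroblast markers, 5 were at 0 in every library, and their sum was 0.0889 to 0.180 FPKM with doxorubicin and 0.0477 to 0.193 FPKM in medium. Of 6 epithelial markers, 4 were at 0 in every library. Of 7 lymphocyte markers, 4 were likewise at 0. The 7 neutrophil markers summed to 1.047 to 1.555 FPKM with doxorubicin and 0.724 to 1.81 FPKM in medium, with 2 of them at 0 throughout. The 5 dendritic cell markers summed to 0.547 to 0.709 FPKM with doxorubicin and 0.603 to 0.859 FPKM in medium. Of 6 endothelial markers, 5 averaged under 1 FPKM, and the list was higher with doxorubicin through the other, Vwf. Vwf had 1.85 to 4.93 FPKM with doxorubicin and 1.30 to 1.95 FPKM in medium, and its part in the results below was not tested. The erythroid list rested on 1 gene, Tfrc, a transferrin receptor gene that dividing cells of many kinds express.

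None of the 8 genes that could be tested passed the test of doxorubicin against medium with group as the only term, and 5 of them did once libraries of the same replicate number were compared with each other. These 8 averaged at least 1 FPKM and were tested among 9869 genes with limma, a linear model that shares its error estimate across genes, at an adjusted p of 0.05. Timp1 and Mmp9 were under that level. Of these 8, 0 were called higher, where 0.689% of all genes were, and 0 were called lower, where 0.223% were. At an unadjusted p under 0.05 there were 5 of 8, against 17.8% of all genes. With library quality weights, limma called 4 of 8 higher, against 14.0% of all genes, and 2 of 8 lower, against 23.3%. With the replicate number as a block, which gives each number a level of its own, Spp1, Timp2 and Icam1 were called higher (3 of 8, against 7.81% of all genes) and Plaur and Pdgfb lower (2 of 8, against 13.7%). The same 5 genes moved in 1 direction within all 5 numbers, 3 higher, as did 13.2% of all genes, and 2 lower, as did 23.1%. Libraries of numbers 2 and 3, and of 4 and 5, were about as alike across numbers as within them. If they are not independent, p-values with the block are too small, and counts over the numbers rest on fewer separate pairs. The median log2 fold change of the 8 genes was 0.22, against -0.03 over all 9869. Without both number 1 libraries, the fit without the block called 1 of the 8 higher (2.89% of 9824 genes) and 0 lower (2.80%). With the block and without number 1, 4 were higher (10.3%) and 2 lower (18.5%), and Plau was the gene added. The genes were chosen with earlier results of these data known, so these shares describe them and test no enrichment.

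**Figure D1:**
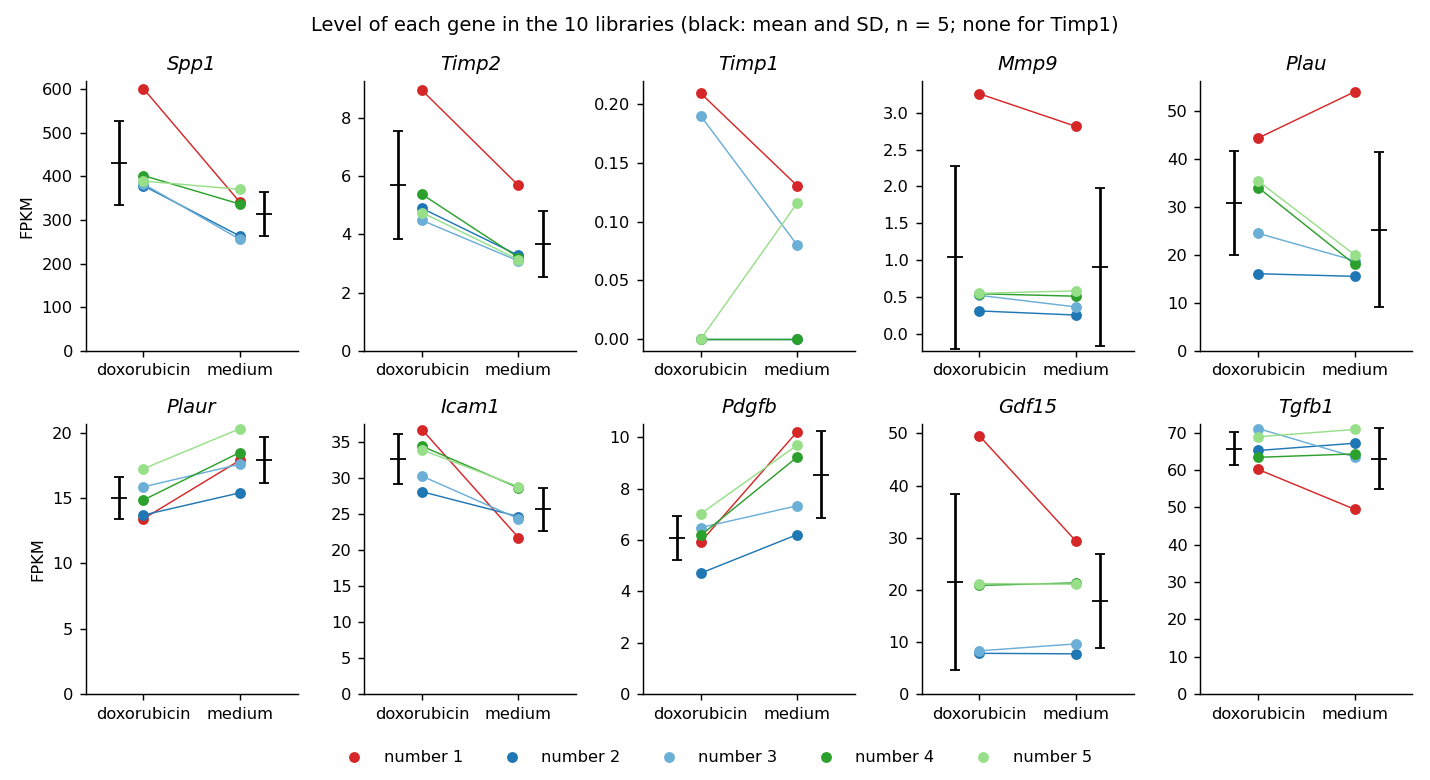
FPKM of the 10 genes in each library, with doxorubicin on the left and medium on the right of each panel, points coloured and joined by replicate number and black bars for the mean and SD of 5 libraries (no bars for Timp1, which is listed at 0 in several libraries). Spp1 lies at 379 FPKM or above in all doxorubicin libraries and at 370 FPKM or below in all medium libraries, and number 1 (red) is the highest pair for Timp2, Mmp9, Plau and Gdf15.

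The promoters of genes called with the block are printed to show what their upstream sequences hold, since these genes moved in opposite directions. RefSeq gave an upstream sequence for 7 of the 10 genes, and Mmp9, Plau and Pdgfb had no entry in that table. The windows are the 250 bases before an annotated start, on GRCm38.p6, while the deposited values rest on GRCm39. They are chr5:104434861-104435110 on the plus strand for Spp1, chr11:118355412-118355661 on the minus strand for Timp2, chr9:21015690-21015939 on the plus strand for Icam1 and chr7:24462233-24462482 on the plus strand for Plaur. Each is written 5′ to 3′ along its gene, with matches to a motif in capitals.
Spp1: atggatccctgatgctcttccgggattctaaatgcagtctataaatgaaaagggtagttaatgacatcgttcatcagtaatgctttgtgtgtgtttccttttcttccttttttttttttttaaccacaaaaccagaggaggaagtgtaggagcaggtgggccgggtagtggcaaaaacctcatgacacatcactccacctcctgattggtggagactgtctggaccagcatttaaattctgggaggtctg
Timp2: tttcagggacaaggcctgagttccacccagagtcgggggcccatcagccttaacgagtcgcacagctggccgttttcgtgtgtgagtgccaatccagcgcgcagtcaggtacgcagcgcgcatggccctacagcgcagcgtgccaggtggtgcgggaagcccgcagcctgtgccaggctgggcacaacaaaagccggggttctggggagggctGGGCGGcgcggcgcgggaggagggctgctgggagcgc
Icam1: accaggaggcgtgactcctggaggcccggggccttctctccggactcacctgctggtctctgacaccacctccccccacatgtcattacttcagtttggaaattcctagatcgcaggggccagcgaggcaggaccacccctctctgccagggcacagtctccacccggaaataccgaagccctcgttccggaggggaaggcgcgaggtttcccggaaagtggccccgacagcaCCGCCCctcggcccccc
Plaur: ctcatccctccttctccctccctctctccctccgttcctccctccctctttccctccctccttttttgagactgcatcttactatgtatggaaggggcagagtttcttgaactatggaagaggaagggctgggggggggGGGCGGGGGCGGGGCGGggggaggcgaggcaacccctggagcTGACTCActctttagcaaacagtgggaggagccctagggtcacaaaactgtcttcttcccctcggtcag

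The windows were searched on both strands for AP-1 (TGANTCA), the ATF4 response element (TGATGNAA), SP1 (GGGCGG) and elements of NF-kB and p53, of 10 letters each. The NF-kB pattern was a single strict form of that element. Its variants were not searched for, so a window without a match may still hold one. The p53 pattern is the single decamer, of which a full p53 response element holds a pair. Among all 32851 promoter windows of this length, AP-1 was found in 6.75%, the ATF4 element in 3.45%, SP1 in 32.7%, NF-kB in 0.356% and the p53 decamer in 7.13%. Plaur, lower with doxorubicin, held 1 AP-1 match 69 to 63 bases before the start and 3 SP1 matches between 111 and 95 bases before it, of which 2 share a base. Timp2 and Icam1, both higher with doxorubicin, held 1 SP1 match each, 37 to 32 and 17 to 12 bases before the start. The match of Icam1 lay on the opposite strand. The Spp1 window held none of the 5 motifs, nor did the window of a second Spp1 start in the table. Of the others, the Tgfb1 window held 5 SP1 matches, that of Timp1 held 1, and that of Gdf15 held none. Matches of different motifs did not overlap. The windows of Timp2, Icam1 and Plaur were 68.0%, 65.2% and 59.6% G or C and that of Spp1 43.6%, against a median of 52.4% over all windows. A match describes letters only.

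Spp1, the osteopontin gene, had the highest listed level of the 10 genes and was the 1 gene of the 8 tested whose groups did not overlap. Its level was 602, 379, 383, 402 and 390 FPKM in doxorubicin libraries 1 to 5, against 341, 263, 256, 337 and 370 FPKM in medium libraries 1 to 5. Bulk values do not tell fewer or more cells that make a transcript from less or more of it per cell, here and for the other genes. All 5 doxorubicin libraries lay above all 5 medium libraries, as they did for 2.73% of all genes tested. Spp1 took 0.109% to 0.169% of the summed FPKM of a doxorubicin library, and 0.0744% to 0.108% of that of a medium library. By mean level it ranked 74 of 22186 genes with doxorubicin and 107 in medium. The means were 431 ± 95.8 FPKM with doxorubicin and 313 ± 51.0 FPKM in medium (SD, n = 5 each). The log2 fold change was 0.45 (SE 0.15, limma adjusted p = 0.161; SE 0.10 and adjusted p = 0.0158 with the block). Within numbers 1 to 5 the log2 differences were 0.82, 0.52, 0.58, 0.26 and 0.07. The difference was largest in number 1 and smallest in number 5. Library quality weights gave 0.24 (limma adjusted p = 0.0373). With number 1 left out of both groups the log2 fold change was 0.36 (limma adjusted p = 0.0875 without the block and 0.00912 with it). With the block, the call was missed without number 3 (adjusted p = 0.0524) or without the filter on low values (0.0756).

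Timp2, which encodes a secreted inhibitor of metalloproteinases, showed the steadiest difference across replicate numbers of the 8 genes tested. It had 8.95, 4.90, 4.48, 5.38 and 4.75 FPKM in doxorubicin libraries 1 to 5, against 5.68, 3.28, 3.08, 3.20 and 3.13 FPKM in medium libraries 1 to 5. The groups overlapped only through medium 1, which lay above every doxorubicin library except the first. The means were 5.69 ± 1.85 FPKM with doxorubicin and 3.67 ± 1.12 FPKM in medium (SD, n = 5 each), a ratio of 1.55. The 5 within-number log2 differences ran from 0.42 to 0.60, with an SD of 0.0760. The log2 fold change was 0.51 (SE 0.18, limma adjusted p = 0.189; SE 0.05 and adjusted p = 0.00151 with the block). When number 1 was left out, Timp2 passed without the block as well (0.49, limma adjusted p = 0.00353), the 1 member to do so. Its call with the block held in all 11 forms of that fit, with adjusted p between 5.53e-04 and 0.0159. Of these forms 9 were added after the data were seen, and all draw on the same 10 libraries.

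Timp1, the other inhibitor gene of the set, was listed at or near 0. Its FPKM was 0.209, 0, 0.190, 0 and 0 in doxorubicin libraries 1 to 5, against 0.131, 0, 0.0801, 0 and 0.116 in medium libraries 1 to 5. The groups overlapped, and an exact permutation test of log2(FPKM + 1) over the 10 libraries gave p = 0.921 (two-sided; 0.00794 is the smallest possible). Genes that every cell uses were low in the same table, with a median of 5.47 FPKM over 85 genes named as ribosomal proteins and 11 of these under 1 FPKM. How far low listed values reflect low mRNA was not tested.

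Mmp9, the gelatinase gene, was low in all libraries but those of number 1. It had 3.25, 0.314, 0.525, 0.547 and 0.552 FPKM in doxorubicin libraries 1 to 5, against 2.81, 0.258, 0.368, 0.514 and 0.586 FPKM in medium libraries 1 to 5. The number 1 libraries thus stood far above the other 8 in both groups, while doxorubicin and medium lay close within each number. Mmp9 fell under the filter, and its mean difference on the log2(FPKM + 1) scale was 0.08 (exact permutation test over the 10 libraries, two-sided p = 0.659). It was higher with doxorubicin in 4 of 5 numbers (exact sign permutation within numbers, p = 0.188, where 0.0625 is the smallest possible).

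Plau, the urokinase gene, differed most between replicate numbers in its response. It had 44.3, 16.0, 24.5, 34.0 and 35.4 FPKM in doxorubicin libraries 1 to 5, against 53.9, 15.5, 18.8, 18.0 and 20.0 FPKM in medium libraries 1 to 5. Doxorubicin libraries 4 and 5 had 1.89 and 1.77 times the level of their medium partners, while in number 1 doxorubicin lay below medium (0.821 times). The log2 differences were -0.28, 0.05, 0.36, 0.88 and 0.79 in numbers 1 to 5, with an SD of 0.491, the largest of the 10 genes. Over all 10 libraries the log2 fold change was 0.36 (SE 0.34, limma adjusted p = 0.621; SE 0.16 and adjusted p = 0.125 with the block, 95% interval with the block 0.0054 to 0.717). With 1 library left out it ran from 0.21 (without doxorubicin 1) to 0.67 (without medium 1), with no call, and library quality weights gave 0.71 (limma adjusted p = 0.00552). Without both number 1 libraries it was 0.52 (limma adjusted p = 0.159 without the block and 0.0115 with it).

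Plaur, the urokinase receptor gene, was lower with doxorubicin in each number. It had 13.4, 13.7, 15.9, 14.9 and 17.2 FPKM in doxorubicin libraries 1 to 5, against 17.9, 15.4, 17.6, 18.5 and 20.3 FPKM in medium libraries 1 to 5. The groups overlapped, with doxorubicin 3 and 5 above medium 2. The means were 15.0 ± 1.58 FPKM with doxorubicin and 17.9 ± 1.77 FPKM in medium (SD, n = 5 each). This is a log2 fold change of -0.24 (SE 0.09, limma adjusted p = 0.194; SE 0.05 and adjusted p = 0.0176 with the block), and within-number log2 differences ran from -0.39 to -0.14. The call with the block was missed without number 4 (adjusted p = 0.0747) or number 5 (0.0674). Per length, Plau stood at 3.30, 1.17, 1.54, 2.29 and 2.05 times Plaur in doxorubicin libraries 1 to 5, against 3.02, 1.01, 1.07, 0.973 and 0.984 times in medium libraries 1 to 5. The ratio was higher with doxorubicin in 5 of 5 numbers, with no share for other gene pairs to set beside it. This count partly restates that Plaur was lower in each number. In number 1 both genes were lower with doxorubicin (0.821 times for Plau and 0.750 times for Plaur).

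Icam1, the adhesion molecule gene, was higher with doxorubicin in each number. It had 36.7, 28.1, 30.2, 34.4 and 33.9 FPKM in doxorubicin libraries 1 to 5, against 21.7, 24.6, 24.3, 28.6 and 28.8 FPKM in medium libraries 1 to 5. Doxorubicin 2 lay below medium 4 and 5, and every other doxorubicin library lay above all medium libraries. The means were 32.7 ± 3.46 FPKM with doxorubicin and 25.6 ± 3.04 FPKM in medium (SD, n = 5 each). This is a log2 fold change of 0.34 (SE 0.10, limma adjusted p = 0.126; SE 0.08 and adjusted p = 0.0213 with the block). The within-number log2 difference was 0.73 in number 1 and 0.18 to 0.30 in numbers 2 to 5. Leaving number 1 out gave a log2 fold change of 0.24 (limma adjusted p = 0.107 without the block and 0.00381 with it). With the block, the call was missed without number 3 (0.0548), number 4 (0.0633) or number 5 (0.0593), or without the filter on low values (0.0776).

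**Figure D2:**
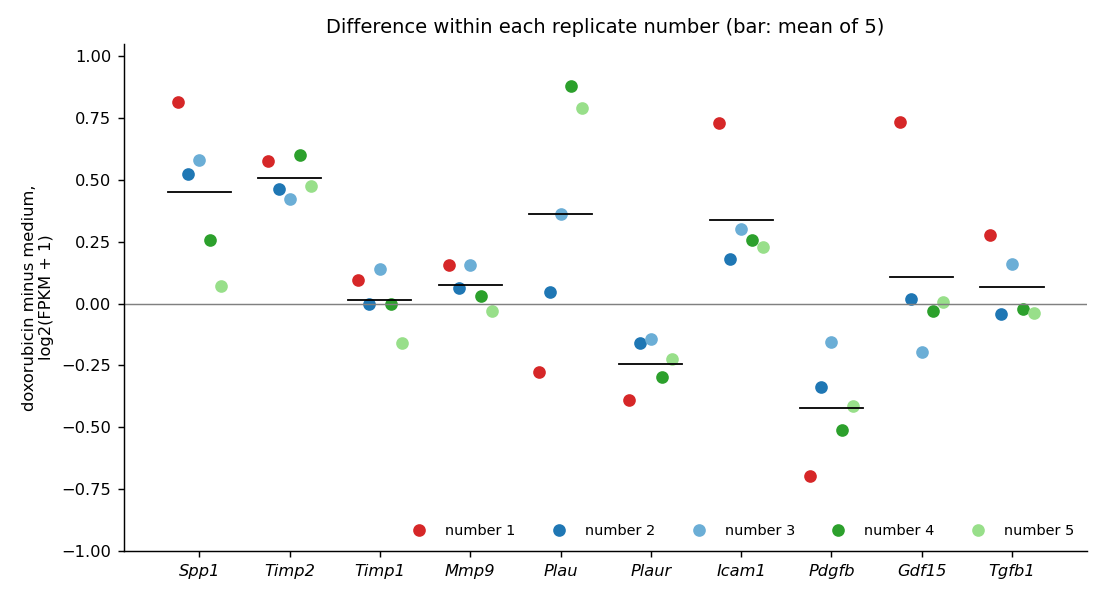
Doxorubicin minus medium on the log2(FPKM + 1) scale within each replicate number, for the 10 genes, with a bar at the mean of the 5 differences. Timp2 points lie together between 0.42 and 0.60, Plau points spread from -0.28 to 0.88, and the Gdf15 point of number 1 (0.73) stands above 4 points near 0.

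Pdgfb, which encodes a growth factor for mesenchymal cells, was lower with doxorubicin in each number. It had 5.93, 4.71, 6.48, 6.18 and 7.02 FPKM in doxorubicin libraries 1 to 5, against 10.2, 6.21, 7.33, 9.23 and 9.70 FPKM in medium libraries 1 to 5. The groups overlapped through medium 2, which lay below doxorubicin 3 and 5. The means were 6.06 ± 0.860 FPKM with doxorubicin and 8.54 ± 1.70 FPKM in medium (SD, n = 5 each), about 29.0% lower. Its log2 fold change was -0.42 (SE 0.13, limma adjusted p = 0.150; SE 0.08 and adjusted p = 0.00974 with the block). Within-number log2 differences ran from -0.70 in number 1 to -0.16 in number 3. The call with the block held in all 11 forms of that fit, 9 of them added after the data were seen, with adjusted p between 0.00472 and 0.0471.

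Gdf15, which encodes a stress-induced member of the TGF-beta superfamily, differed more between replicate numbers than between the groups. It had 49.5, 7.79, 8.27, 20.8 and 21.2 FPKM in doxorubicin libraries 1 to 5, against 29.4, 7.69, 9.60, 21.3 and 21.1 FPKM in medium libraries 1 to 5. In both groups the order was number 1 highest, numbers 4 and 5 next and numbers 2 and 3 lowest. Only in number 1 did doxorubicin stand clear of medium (a ratio of 1.69), and in numbers 2 to 5 the ratio lay between 0.861 and 1.01. The log2 fold change was 0.11 (SE 0.50, limma adjusted p = 0.940; SE 0.12 and adjusted p = 0.538 with the block, 95% interval with the block -0.16 to 0.38). Without both number 1 libraries it turned to -0.05, with a 95% interval of -0.17 to 0.07 with the block. Cdkn1a, Ccng1 and Mdm2, which p53 also induces, were each higher with doxorubicin in 5 of 5 numbers, as were 13.2% of all genes. Ccng1 (log2 fold change 1.56, limma adjusted p = 0.00468) and Mdm2 (0.99, limma adjusted p = 0.0354) passed with group only. Mdm2 missed the threshold with 7 of the 10 libraries left out in turn (highest adjusted p 0.103).

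Tgfb1, whose product is secreted in a latent form, was at 60.2, 65.3, 71.2, 63.5 and 69.0 FPKM in doxorubicin libraries 1 to 5, against 49.5, 67.2, 63.6, 64.4 and 70.9 FPKM in medium libraries 1 to 5. The groups overlapped, and 2 of 5 numbers were higher with doxorubicin. The log2 fold change was 0.07 (SE 0.09, limma adjusted p = 0.766; SE 0.06 and adjusted p = 0.430 with the block, 95% interval with the block -0.07 to 0.20). Without both number 1 libraries it was 0.01, with a 95% interval of -0.09 to 0.12 with the block.

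**Figure D3:**
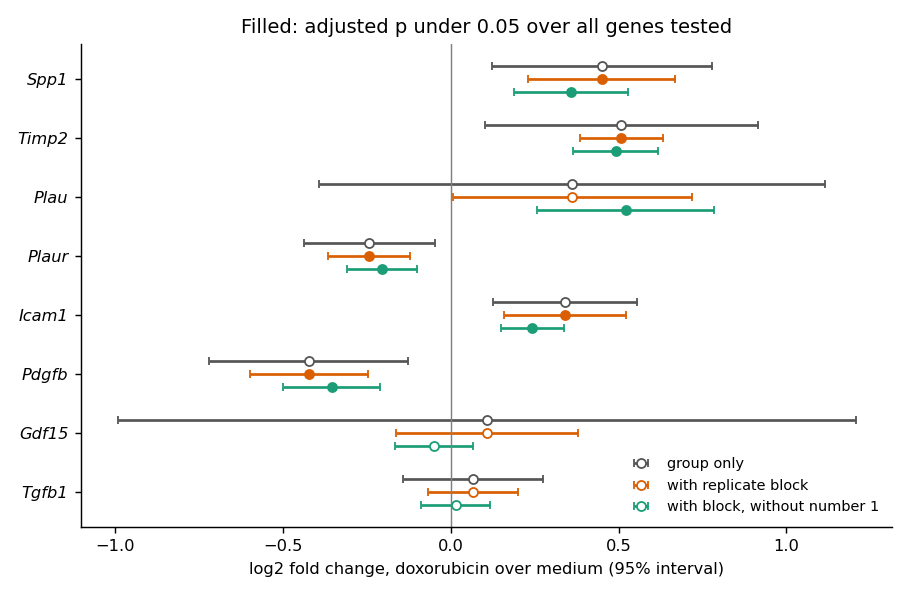
Log2 fold change of doxorubicin over medium with its 95% interval for the 8 tested genes, from limma with group only (grey), with the replicate block (orange) and with the block and without number 1 (green). Filled points have an adjusted p under 0.05 over all genes tested: none with group only, 5 genes with the block and 6 without number 1, where Plau joins them.

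Set in order of mean listed FPKM in medium, the genes ran Spp1, Tgfb1, Icam1, Plau, Plaur, Gdf15, Pdgfb, Timp2, Mmp9 and Timp1. Spp1 above Tgfb1 and Tgfb1 above Icam1 held in 5 of 5 libraries of each group, as did Gdf15 above Pdgfb, Timp2 above Mmp9 and Mmp9 above Timp1. Neighbours in the middle were not separable by their spread. Icam1 stood above Plau in 3 of 5 doxorubicin libraries and 4 of 5 medium libraries, and Plaur above Gdf15 in 2 of 5 libraries of each group. Plau stood above Plaur in 5 of 5 doxorubicin libraries and 3 of 5 medium libraries. Pdgfb stood above Timp2 in 3 of 5 doxorubicin libraries and 5 of 5 medium libraries, as Pdgfb was lower and Timp2 higher with doxorubicin. In rank of mean level among all 22186 genes, Timp2 stood at 7177 with doxorubicin and 8253 in medium, and Pdgfb at 7010 with doxorubicin and 6226 in medium.

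Among genes around the 10 (8 lists with 173 genes, of which 78 were tested), 4 passed with group as the only term, all higher with doxorubicin (5.13% of the 78, against 0.689% of all genes). With the replicate block 14 were higher (17.9%, against 7.81% of all genes) and 10 lower (12.8%, against 13.7%). Library quality weights called 14 higher (17.9%, against 14.0% of all genes) and 13 lower (16.7%, against 23.3%). Counts for single lists are to be read beside these shares. The lists were chosen with earlier results of these data known, so the shares describe them and test no enrichment. Genes named below were mostly picked by p-value, so a steady direction or groups without overlap add no separate evidence. Most relatives of Mmp9 and the TIMPs were listed at too low an FPKM to be tested. Of 28 further metalloproteinase, ADAM and TIMP genes, 20 were under the filter and 5 of these were listed at 0 throughout. Of the 8 tested, 0 passed limma with or without the block, with 0 at an unadjusted p under 0.05 and 2 by quality weights, and their log2 fold changes ran from -0.13 to 0.17. In the urokinase and plasminogen list, 7 of 16 genes were tested, 1 was higher with group only and 2 with the block, and 0 were lower. St14, which encodes the membrane serine protease matriptase, had 14.8 to 18.9 FPKM with doxorubicin and 10.8 to 13.3 FPKM in medium (log2 fold change 0.46, limma adjusted p = 0.0354; 0.00419 with the block). S100a10, whose product binds plasminogen together with annexin A2, had 238 to 286 FPKM with doxorubicin and 133 to 229 FPKM in medium (0.56, limma adjusted p = 0.105; 0.00591 with the block). Neither pair of groups overlapped, and 2.73% of all genes tested had groups apart in this direction.

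A list of 18 genes held receptors of osteopontin and ICAM-1, related adhesion molecules and integrin adaptors. Of these genes, 13 were tested and 0 passed limma with group only (2 at an unadjusted p under 0.05, 5 by quality weights), against 2 higher and 1 lower in the blocked fit. The log2 fold changes of the 13 ran from -0.34 to 0.36, and the gene called lower is not named below. Itgav, the integrin alpha V gene, had 24.7 to 33.5 FPKM with doxorubicin and 19.5 to 25.5 FPKM in medium (0.36, limma adjusted p = 0.105; 0.00229 with the block). Itgam, the alpha chain gene of the ICAM-1 receptor Mac-1, had 41.3 to 88.7 FPKM with doxorubicin and 40.4 to 60.6 FPKM in medium (0.27, limma adjusted p = 0.488; 0.0288 with the block). Cd44, another osteopontin receptor gene named after its values were seen, was at 59.1 ± 5.53 FPKM with doxorubicin and 56.4 ± 4.40 FPKM in medium (SD, n = 5 each; limma adjusted p = 0.730). Of 5 further PDGF ligand and receptor genes, Pdgfa, named because it was the 1 tested, was at 0.996 ± 0.466 FPKM with doxorubicin and 1.22 ± 0.389 FPKM in medium (SD, n = 5 each; limma adjusted p = 0.642, called with quality weights), and the other 4 were under the filter.

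In the TGF-beta list, 14 of 29 genes were tested, with 1 higher by group only, and 1 higher and 4 lower with the block. Eng, which encodes the co-receptor endoglin, had 7.61, 5.97, 6.84, 5.54 and 5.74 FPKM in doxorubicin libraries 1 to 5, against 3.85, 3.94, 3.74, 3.49 and 3.38 FPKM in medium libraries 1 to 5. The groups were far apart, and the log2 fold change of 0.64 (SE 0.09, limma adjusted p = 0.0111; 0.00116 with the block) stayed past the threshold with any 1 library left out (highest adjusted p 0.0499). Of the endothelial markers, Vwf was also higher in the doxorubicin libraries (values above), and its part in the level of Eng was not tested. Tgif1 and Skil, which encode repressors of SMAD-dependent transcription, were lower with the block. The log2 fold change of Tgif1 was -0.45 (limma adjusted p = 0.165; 0.00553 with the block) and that of Skil -0.30 (0.635; 0.0259 with the block). The receptor genes Tgfbr1 (0.15) and Tgfbr2 (-0.02), named after their values were seen, did not pass (limma adjusted p = 0.678 and 0.965). Among other secreted growth factor genes, 10 of 27 were tested, 0 passed limma with group only (1 at an unadjusted p under 0.05, 3 by quality weights), against 1 higher and 2 lower in the blocked fit. Vegfa, the angiogenic factor gene, had 36.7, 9.51, 11.2, 17.6 and 17.5 FPKM in doxorubicin libraries 1 to 5, against 94.0, 16.8, 18.3, 25.8 and 27.4 FPKM in medium libraries 1 to 5. It was lower in 5 of 5 numbers (-0.78, limma adjusted p = 0.408; 0.00364 with the block), as were 23.1% of all genes. Metrnl, a meteorin-like secreted factor gene, was likewise lower in 5 of 5 numbers (-0.54, limma adjusted p = 0.328; 0.00552 with the block).

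In the matrix list, 14 of 38 genes were tested and 9 were listed at 0 throughout. With group only 2 were higher and 0 lower, against 4 higher and 2 lower in the blocked fit. The log2 fold changes of the 14 ran from -0.31 to 0.46, and the 2 called lower are not named below. Ecm1, an extracellular matrix protein gene, had 15.3 to 21.2 FPKM with doxorubicin and 11.9 to 15.1 FPKM in medium (0.46, limma adjusted p = 0.0480; 0.00165 with the block). Lgals3bp, the gene of a secreted galectin-binding glycoprotein, had 24.8 to 34.0 FPKM with doxorubicin and 19.5 to 21.8 FPKM in medium (0.43, limma adjusted p = 0.0402; 0.00347 with the block). Neither pair of groups overlapped, as for 2.73% of all genes in this direction. Ecm1, Lgals3bp and St14 each missed the threshold with 8 of the 10 libraries left out in turn (highest adjusted p 0.147, 0.121 and 0.106). Lgals1, the galectin 1 gene (0.27, limma adjusted p = 0.542; 0.00392 with the block), and Mfge8, which encodes a bridging protein between dying cells and phagocytes (0.33, 0.371; 0.0138 with the block), were higher with the block. Of 12 cathepsin and cystatin genes, 11 were tested and 0 passed limma with group only. At an unadjusted p under 0.05 there were 3 (17.8% of all genes), and quality weights called 4 (14.0% of all genes higher and 23.3% lower). The blocked fit called 4 higher and 1 lower (7.81% and 13.7% of all genes). Log2 fold changes of the 11 ran from -0.31 to 0.33, and the gene called lower is not named here. Ctsk, the cathepsin K gene, had 605 to 943 FPKM with doxorubicin and 557 to 755 FPKM in medium (0.33, limma adjusted p = 0.220; 0.00670 with the block), and Cstb, an inhibitor gene of such cathepsins, was higher by a similar amount (0.33, limma adjusted p = 0.197; 0.00737 with the block). The median log2 fold change of the 8 lists ran from -0.16 to 0.10, against -0.03 over all genes.

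**Figure D4:**
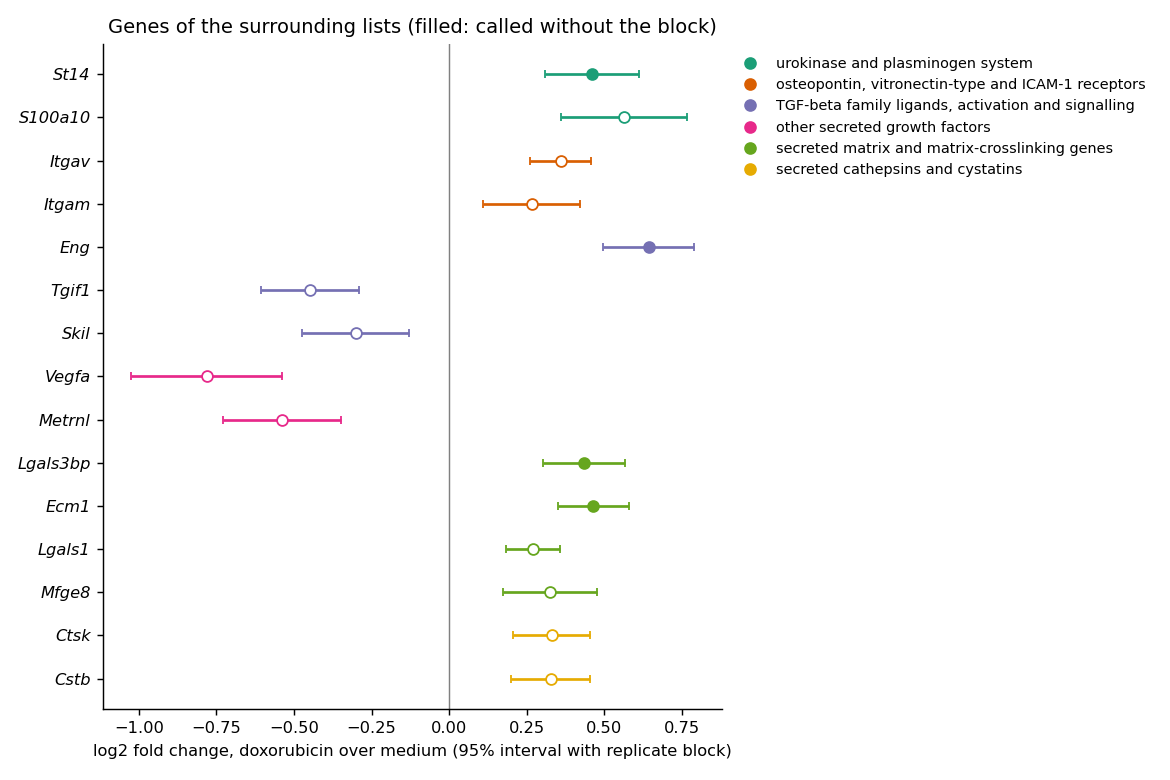
Log2 fold change of doxorubicin over medium for the genes named from the surrounding lists, with 95% intervals from the fit with the replicate block and filled points for genes called with group only. Eng, Ecm1, St14 and Lgals3bp are the 4 filled points, between 0.43 and 0.64, and Vegfa lies lowest at -0.78.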

How the data were processed

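Poly(A) RNA of 5 doxorubicin and 5 medium libraries of RAW264.7 cells was sequenced. The authors deposited 1 table of FPKM values, whose columns were matched to samples by the library names that the labels give. Per the submitters' processing notes the reads were placed on GRCm39, and the aligner, quantifier and annotation are not given in the sources used here. Depth is unknown, so no counting interval was given. Separate cultures per library are not stated in the labels, and p-values then cover no more than the spread between these samples, which may be technical. The members and lists were chosen with earlier results of these data known.

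Values were analysed as log2(FPKM + 1), a scale that understates the change of low genes. The 9869 of 22186 genes that averaged 1 FPKM or more were fitted together in limma 3.58.1 (R 4.3.3). Group was the only term, eBayes used a trend, and p-values were adjusted by Benjamini-Hochberg with a threshold of 0.05. The fit was tested on simulated data with independent libraries and no shared effect of replicate number. That test therefore does not cover the likeness of same-numbered libraries. Members under the filter had an exact permutation test. Named were all 10 members, the list genes past the threshold, up to 2 more per list with the smallest adjusted p under 0.05 with the block, and Cdkn1a, Ccng1 and Mdm2. Any other gene was named after its values were seen. All 173 list genes were matched by symbol.

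Both groups carry numbers 1 to 5 in the titles. Deviations from the group mean of same-numbered libraries correlated at 0.794, 0.700, 0.667, 0.524 and 0.547, each above 0.1, so the numbers were taken to pair the samples and the fit with the replicate block stands beside the main values. Numbers 2 with 3 (0.589 and 0.692) and 4 with 5 (0.512 and 0.509) also correlated across numbers, close to the values within numbers. Within these sets the correlations thus do not single out same-numbered libraries. If they are not independent, p-values with the block are too small, and counts over the numbers rest on fewer separate pairs. Alternatives changed the pseudocount, filter, scaling, weights, robust fit, block and libraries.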

Additional observations from a re-analysis of the deposited data

Results flagged for a closer look

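In 6 of 20 groups of 5 libraries, the highest value was set apart from the other 4 by a gap that takes up an unusually large part of the group's range (Dixon's ratio, which chance exceeds in about 1 in 20 groups). All 6 were libraries of number 1. Spp1 was at 601.8 FPKM in doxorubicin 1, against 378.9 to 402.2 FPKM in the other doxorubicin libraries. Timp2 was at 8.953 FPKM in doxorubicin 1 (4.481 to 5.376 in the others) and at 5.681 FPKM in medium 1 (3.085 to 3.277 in the others). Mmp9 was at 3.255 FPKM in doxorubicin 1 (0.314 to 0.552 in the others) and at 2.814 FPKM in medium 1 (0.258 to 0.586 in the others). Plau was at 53.94 FPKM in medium 1, against 15.5 to 20.0 FPKM in the other medium libraries, and doxorubicin 1, at 44.3 FPKM, was not set apart by this measure. What sets the number 1 libraries apart was not tested.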

How the results depend on the processing

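With group as the only term, 0 of the tested members passed under a pseudocount of 0.1, no filter, a filter of 5 FPKM, 3 scalings, a robust fit or any 1 library left out (0 to 0). The count was 5 with the replicate block, 1 without both number 1 libraries, 6 without them and with the block, and 6 with library quality weights. In fits added after the data were seen, the blocked count was 5 with a pseudocount of 0.1, with each of 3 scalings and without number 2, and 3 with no filter, without number 3, without number 4 and without number 5. Over all genes 90 passed, against 2127 with the replicate block, 559 and 2823 without number 1 (without and with the block), 3681 with quality weights, 57 with the filter of 5 FPKM, and 15 (without medium 4) to 226 (without medium 1) with 1 library left out. Of the list genes 4 passed, against 24 with the replicate block, 11 and 27 without number 1 (without and with the block), 27 with quality weights and 1 to 6 with 1 library left out. Differences that turned sign were not called in any setting. Gdf15 (0.11) was at -0.0499 without number 1, with or without the block, and -0.105 with quality weights, and ran from -0.26 to 0.37 with 1 library left out. The range was -0.0162 to 0.111 for Tgfb1, -0.0265 to 0.0421 for Timp1 and -0.23 to 0.36 for Mmp9, and Timp1 was at -0.00456 without number 1. The cause was not tested. Spp1, Timp2, Plau, Plaur, Icam1 and Pdgfb kept their direction in every alternative that gave a value (Timp2 gave none under the filter of 5 FPKM). Scalings moved the median of all genes by less than 0.1 (-0.04 to 0.02).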
